A study of Mus musculus with 369 samples.

Results

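Spp1, Fam20c and Cd44 encode osteopontin, a kinase that phosphorylates it and a receptor that binds it. The 3 genes, of 23337 in the count table, were chosen by name, with their levels in the same cells already known from an earlier look at the data. Their levels and their differences between the groups below are therefore descriptions, with no test. RNA was measured by Smart-seq2, a plate-based method that reads whole transcripts of 1 sorted cell per well. The wells held microglia, the resident macrophages of the brain, from male mice on the C57BL/6J background at postnatal day 7. Wild-type (WT) and Trem2 knockout (KO) mice were used, and the sources used here do not describe the knockout allele. From each genotype, cells came from either the CD45lowCD11b+ gate (unselected) or that gate narrowed to cells with both Gpnmb and Clec7a on the surface (gated). Over all plates, 334 wells passed the 3 quality criteria in the labels, with 78 WT unselected, 90 WT gated, 90 KO unselected and 76 KO gated cells. Every group came from a separate plate, the animals behind the wells are not named, and a group therefore counts as 1 sample. Plate and group cannot be told apart, and cells are not replicates of a condition.

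Osteopontin is an acidic, secreted glycoprotein of the SIBLING family of bone and tooth matrix proteins, which are encoded next to each other in the genome. Fam20c is the Golgi kinase that phosphorylates many secreted proteins, osteopontin among them, and its loss disturbs the mineralisation of bone and teeth. Cd44 is a cell surface receptor for hyaluronan and for osteopontin, which also binds integrins through its RGD motif. In microglia, Spp1 RNA is a known marker of the amoeboid cells of early postnatal white matter and of the state seen around plaques and in demyelination.

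Passing cells held 157653 to 1051282 gene counts, with group medians of 494746 in WT unselected, 630968 in WT gated, 649634 in KO unselected and 697689 in KO gated cells. The median number of detected genes differed between the groups, at 2608, 3162, 2184 and 3995 in the same order. Levels are given as CPM, a gene's counts scaled to the total of all gene counts. The targeted gene, Trem2, had a level of 1115 CPM in WT unselected and 1604 in WT gated cells, above the 229 CPM of KO unselected and the 413 of KO gated cells. Whether the remaining reads lie outside the deleted part cannot be read from counts per gene. All 9 microglial markers were at 5 CPM or more in every group, and 1 passing cell, in the KO unselected group, had no count of any of them. The sum of these markers was lower in the gated groups, at 46529 CPM in WT unselected, 31915 in WT gated, 46503 in KO unselected and 23889 in KO gated cells. By the rule of size given below, the gate had 3 of the 9 lower in WT cells, against 20.4% of all measured genes. In KO cells it had 6 of the 9 lower, against 22.4% of all measured genes. The part of this shift in the member differences was not tested. The monocyte markers Ly6c2 and Ccr2 and the neutrophil marker S100a9 were at 0 in every group, and summed neutrophil markers reached at most 3.07 CPM and lymphocyte markers at most 0.668 CPM. Summed levels of all 8 monocyte markers were 1.54 CPM in WT unselected, 7.25 in WT gated, 5.15 in KO unselected and 14.9 in KO gated cells. The 10 markers of border-associated macrophages, which line the meninges and vessels of the brain, summed to 350.5 CPM in WT unselected, 1020 in WT gated, 463.5 in KO unselected and 653.6 in KO gated cells. Of these sums, Mrc1 alone made up 343.6, 455.2, 441.6 and 303.3 CPM in the same order. The gate had 9 of the 10 called higher in WT cells (14.3% of all measured genes) and 8 in KO cells (11.7%), and 0 lower in either. Cells with 3 or more of the 10 markers after thinning to equal depth numbered 1, 22, 2 and 22.

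Spp1 lies on chromosome 5 of the mm10 build, from 104435118 to 104441050 on the plus strand (GENCODE M21, ENSMUSG00000029304.14). Fam20c lies on the same chromosome, from 138754514 to 138810077 on the plus strand (ENSMUSG00000025854.15). Cd44 lies on chromosome 2, from 102811141 to 102901665 on the minus strand (ENSMUSG00000005087.17). The 250 bases in front of the RefSeq start sites of Spp1 and Cd44 (GRCm38.p6) are shown because both genes were at higher levels in the gated groups, and to show what these promoters hold. Capitals mark matches to a searched motif on either strand.
Spp1, chr5:104434861-104435110, plus strand: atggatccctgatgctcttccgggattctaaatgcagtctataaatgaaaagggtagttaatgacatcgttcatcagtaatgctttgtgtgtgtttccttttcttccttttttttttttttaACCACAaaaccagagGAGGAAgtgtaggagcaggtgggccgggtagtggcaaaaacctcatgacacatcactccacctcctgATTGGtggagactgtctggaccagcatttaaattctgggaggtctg
Cd44, chr2:102901666-102901915, minus strand: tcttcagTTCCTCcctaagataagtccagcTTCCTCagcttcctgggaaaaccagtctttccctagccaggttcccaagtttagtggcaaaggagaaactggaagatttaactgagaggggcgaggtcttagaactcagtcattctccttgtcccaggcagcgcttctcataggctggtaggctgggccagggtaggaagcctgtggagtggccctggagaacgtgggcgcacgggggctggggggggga
The Spp1 window held the RUNX motif TGTGGT on the opposite strand at -128 to -123 from the start site, the PU.1 core GAGGAA at -113 to -108 and the CCAAT box on the opposite strand at -46 to -42. The Cd44 window held the PU.1 core on the opposite strand at -243 to -238 and at -220 to -215. Among 32851 promoter windows of the same length, 23.3% held GAGGAA, 14% held TGTGGT and 33.8% held CCAAT. Neither window held the AP-1 motif TGANTCA or the E-box CACGTG, which 6.75% and 6.02% of all windows held. GC content was 43.6% in the Spp1 window and 56.4% in the Cd44 window, against a median of 52.4% over all windows. The Fam20c window overlaps an annotated exon of the gene and is not printed. Its GC content was 81.2%, at or above that of 99.3% of all windows, and it held 41 CpG pairs against 3 in the Spp1 window, 5 in the Cd44 window and a median of 6. A motif match describes letters and was not tested as a binding site.

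Spp1, the ligand, ran from cells without a count to cells where it made up several percent of all gene counts, and the gated groups held most of the high cells. Counts summed over the passing cells gave 936 CPM in WT unselected cells (95% Poisson interval 926 to 945.5), 8779 in WT gated (8754 to 8804), 1560 in KO unselected (1550 to 1570) and 27524 in KO gated cells (27478 to 27570). These intervals cover counting error only, since amplified reads are not independent molecules, and they leave out differences between cells, animals and plates. In single cells, Spp1 ran from 0 to 45913 CPM with a median of 0.770 in WT unselected cells, and from 0 to 59524 with a median of 2053 in WT gated cells. In KO unselected cells it ran from 0 to 44907 CPM with a median of 0, and in KO gated cells from 0 to 67084 with a median of 29311. The ranges of all 4 groups overlapped, and the highest cell of every group reached 44907 CPM or more. The groups differed more in how many cells were high than in the highest level reached. At 10000 CPM or more there were 3 of 78 WT unselected, 26 of 90 WT gated, 3 of 90 KO unselected and 60 of 76 KO gated cells. At 0 there were 39, 7, 51 and 2 cells in the same order.

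**Figure D1:**
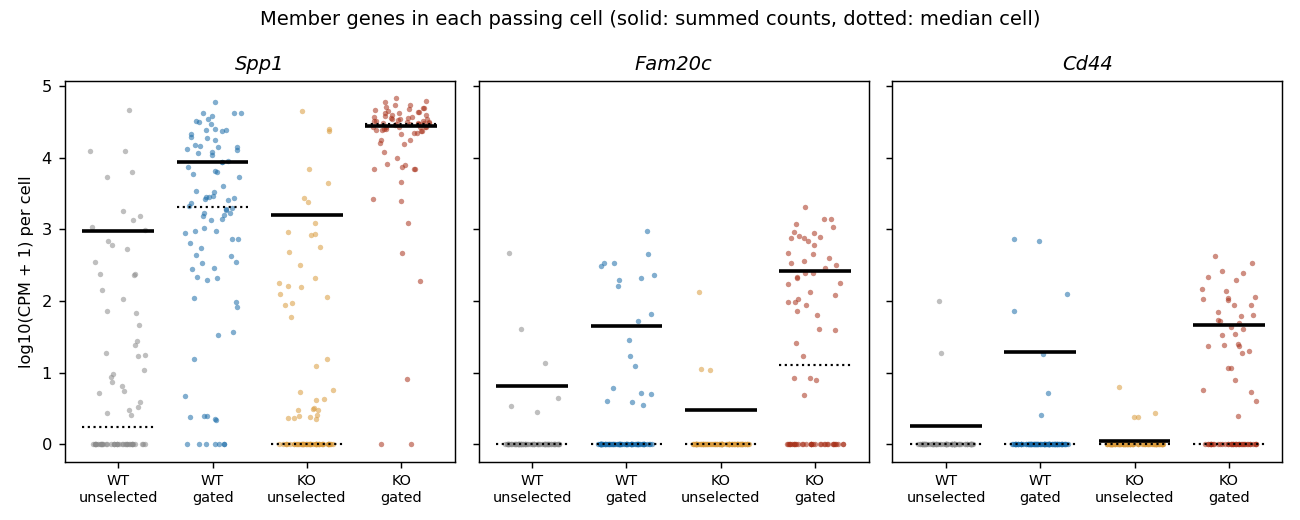
Level of Spp1, Fam20c and Cd44 in each passing cell, as log10(CPM + 1), by group. Each point is 1 cell, the solid line is the level from summed counts and the dotted line is the median cell. Spp1 reaches 44907 CPM or more in a cell of every group, while its median is 0.770 CPM in WT unselected, 2053 in WT gated, 0 in KO unselected and 29311 in KO gated cells.

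With every cell thinned to 100000 gene counts, so that depth is equal, Spp1 was detected in 44.9% of WT unselected cells (exact Clopper-Pearson interval 33.6% to 56.6%), 86.7% of WT gated (77.9% to 92.9%), 31.1% of KO unselected (21.8% to 41.7%) and 96.1% of KO gated cells (88.9% to 99.2%). Without thinning the shares were 50%, 92.2%, 43.3% and 97.4%. The cells that carried the RNA were few in the unselected groups. A single cell held 50.9% of all Spp1 counts of the WT unselected group and 40.1% of those of the KO unselected group. The highest cell held 7.1% in the WT gated and 3.45% in the KO gated group. To reach 90% of the counts took 7 of 78 WT unselected, 31 of 90 WT gated, 6 of 90 KO unselected and 51 of 76 KO gated cells. The summed level of an unselected group therefore rests on a few cells.

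**Figure D2:**
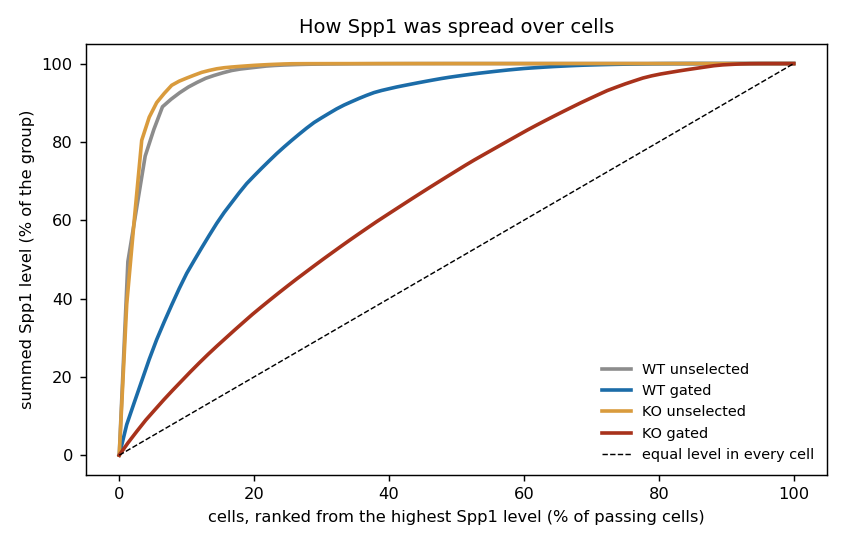
Share of the summed Spp1 level of a group (vertical axis, percent) held by its cells ranked from the highest level (horizontal axis, percent of passing cells). Each line is 1 group and the dashed line is an equal level in every cell. The lines add up CPM per cell. By raw counts, which also follow each cell's depth, 90% of Spp1 was held by 7 WT unselected, 31 WT gated, 6 KO unselected and 51 KO gated cells. The lines can therefore reach 90% at other numbers of cells.

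Fam20c, the kinase, was rare in unselected cells and most frequent in KO gated cells. Summed levels were 5.59 CPM in WT unselected cells (Poisson interval 4.88 to 6.39), 44.4 in WT gated (42.6 to 46.2), 2.02 in KO unselected (1.67 to 2.43) and 261.5 in KO gated cells (257.1 to 266). The median cell was at 0 CPM in the first 3 of these groups and at 11.8 in KO gated cells. The highest cell was at 462 CPM in WT unselected, 938 in WT gated, 134 in KO unselected and 2051 in KO gated cells, and every group held cells at 0, so the ranges overlapped. After thinning, Fam20c was detected in 3.85% of WT unselected cells (0.800% to 10.8%), 15.6% of WT gated (8.77% to 24.7%), 3.33% of KO unselected (0.693% to 9.43%) and 52.6% of KO gated cells (40.8% to 64.2%). A single cell held 85.8% of the counts in the WT unselected group, 29.9% in WT gated, 92.2% in KO unselected and 11.7% in KO gated cells.

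Cd44, the receptor, had the fewest counts of the members, most of them in the gated groups. Summed levels were 0.821 CPM in WT unselected cells (32 counts), 18.6 in WT gated (1001 counts), 0.123 in KO unselected (7 counts) and 45.2 in KO gated cells (2280 counts). The median cell was at 0 CPM in every group. The highest cell was at 98.1 CPM in WT unselected, 723 in WT gated, 5.41 in KO unselected and 421 in KO gated cells, and all groups overlapped at 0. Thinned cells with a Cd44 count numbered 2 of 78 WT unselected, 5 of 90 WT gated, 0 of 90 KO unselected and 30 of 76 KO gated cells. The 0 of 90 limits the share at that depth to 3.33% by a floor of 3 cells and to 4.02% by the exact Clopper-Pearson limit, and at full depth 4 of the 90 cells (4.44%) held a count. Of the counts in WT gated cells, 1 cell held 52.1% and the top 3 held 93.1%, so that group's level rests on these few cells. In KO gated cells the top cell held 14.8%.

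By summed counts, each member differed more between the gates than between the genotypes and was highest in KO gated cells. For Fam20c this order was not stable. By mean CPM per cell its gate difference in WT cells was 2.32 and its genotype difference in gated cells 2.64. The gate differences of Fam20c and Cd44, and their genotype differences in unselected cells, rest on few counts in unselected cells. From unselected to gated, Spp1 differed by a log2(CPM + 1) difference of 3.23 in wild-type and 4.14 in KO cells, Fam20c by 2.78 and 6.44, and Cd44 by 3.43 and 5.36. Since unselected cells had few counts of Fam20c and Cd44, their folds carry wide counting intervals. The Cd44 ratio of KO gated over unselected was 367 (178 to 914), and that of Fam20c was 129 (108 to 157). Both intervals leave out differences between cells, and the top cell held 92.2% of the KO unselected Fam20c counts. Knockout over wild type gave log2 differences of 0.74 for Spp1, -1.13 for Fam20c and -0.70 for Cd44 in unselected cells, and 1.65, 2.53 and 1.23 in gated cells. The unselected Spp1 difference was 0.12 when every cell weighed the same and -0.23 in cells matched on detected genes, so its direction was not stable. Matching on detected genes, which were more numerous in the gated groups, gave gate differences of 2.56 in wild-type and 2.72 in KO cells for Spp1, and of 1.90 and 5.05 for Fam20c. In the same matching the gated difference between genotypes was 1.32 for Spp1, 1.91 for Fam20c and 0.89 for Cd44, the last under 2-fold. Leaving out the top cell of each group gave 4.15 for the Spp1 gate difference in WT cells. It gave 4.18 for Fam20c there and 7.67 in KO cells, and 2.00 for the gated Cd44 difference between genotypes.

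A difference was called where it was at least 2-fold, with 5 CPM or more in the higher group and a sign that did not change when cells were weighted equally. By that rule of size, 3 of 3 members were higher in gated wild-type cells (14.3% of the 10554 measured genes were called higher) and 0 lower (20.4% lower). In knockout cells the gate gave 3 of 3 members higher (11.7%) and 0 lower (22.4%). For knockout over wild type, 0 members were higher (16.3%) and 1, Fam20c, was lower (13.3%) in unselected cells, and 3 of 3 were higher (10.6%) and 0 lower (11.9%) in gated cells. The Fam20c call in unselected cells ended without the top cell of each group, at a log2 difference of -0.64. The members were chosen with these contrasts in view, so nothing is read from the counts.

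The Cd44 level differed between KO gated cells with 3 or more markers of border-associated macrophages and those with fewer. In KO gated cells, 10 of the 22 cells with 3 or more such markers had Cd44 detected after thinning, against 20 of 54 with fewer. Their summed levels were 76.9 and 33.4 CPM. In WT gated cells the numbers were 0 of 22 and 5 of 68. These Cd44 cells are too few to give a direction, and the top 3 held 93.1% of the group's Cd44 counts. Without the cells carrying 3 or more border markers, the gated Cd44 difference between genotypes was 0.46 on the log2 scale, under 2-fold. Fam20c was at 161.1 CPM in the KO gated cells with such markers and 298.6 CPM in those with fewer. For Spp1 in KO gated cells, the summed level was 28372 CPM with 3 or more markers and 27211 CPM with fewer. The part of these cells in the Cd44 difference was not tested.

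Compared on the scale of counts per kilobase of union exon length scaled to the same sum in each group (TPM-like), Spp1 was at 2320 in WT unselected, 20341 in WT gated, 3779 in KO unselected and 61147 in KO gated cells. On that scale Fam20c was at 3.47, 25.7, 1.23 and 145.3, and Cd44 at 0.495, 10.5, 0.0725 and 24.4. Spp1 was therefore the most abundant member in every group, at 421 times the Fam20c level in KO gated cells and 791 times in WT gated cells. The integrin subunit Itgb5 (TPM-like level of 880.5 in WT unselected, 806 in WT gated, 838 in KO unselected and 631 in KO gated cells) and Itgb1 (341, 222, 378 and 213.6) stood above Cd44 in every group. Itgav, the alpha subunit that pairs with Itgb5, Itgb3 and Itgb1 to bind the RGD motif, was at 13.2, 6.84, 7.96 and 7.91 TPM-like. On that scale it was above Cd44 in both unselected groups and below it in both gated groups. By CPM the order in WT gated cells was the other way, with Itgav at 19.25 and Cd44 at 18.62. There, Itgav was detected in 13 cells and Cd44 in 5 after thinning, and the top 3 cells held 93.1% of the Cd44 counts.

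Within a plate, every cell with Cd44 after thinning also held Spp1, while Fam20c was found with and without it. Spp1 was found in 3 of 3 Fam20c cells of the WT unselected, 10 of 14 of the WT gated, 3 of 3 of the KO unselected and 39 of 40 of the KO gated group. The product of the shares of both genes would give 1.35, 12.13, 0.933 and 38.4 cells, so the WT gated count was under that product. For Cd44 with Spp1 the counts were 2 of 2, 5 of 5 and 30 of 30 cells in WT unselected, WT gated and KO gated cells, beside products of 0.897, 4.33 and 28.8.

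In the WT unselected group, the cells with Fam20c or Cd44 were among those with the most Spp1. The 3 Fam20c cells ranked 1, 4 and 6 by Spp1, at 45913, 6305 and 1799 CPM. The 2 Cd44 cells ranked 8 and 9, at 1341 and 1088 CPM. In the cell with the most Spp1, Fam20c was at 462 CPM, Gpnmb at 15601 and the homeostatic marker Tmem119 at 4.95. In that group, 9 cells had 1000 CPM or more of Spp1. Of these, 3 had Fam20c, 2 had Cd44 and 6 had Gpnmb, against 0, 0 and 16 of the other 69 cells, counted after thinning. At full depth 3 of those 69 cells also held Fam20c, at Spp1 levels of 67.8, 231 and 349 CPM. The median Tmem119 level was 114.5 CPM in those 9 cells and 2297 CPM in the rest. Median detected genes after thinning were 2580 in the 9 cells and 2229 in the other 69. They were 3898 in the 3 Fam20c cells, 3146 in the 2 Cd44 cells and 2238 in cells with neither. The part of detected genes in these counts was not tested.

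In KO unselected cells the 3 Fam20c cells ranked 1, 16 and 23 by Spp1, at 44907, 178 and 58.6 CPM. Gpnmb was found in 6 of the 8 cells with 1000 CPM or more of Spp1 and in 7 of the other 82. Median Tmem119 was 487.5 CPM in the 8 and 1723 CPM in the 82. Cd44 was not detected after thinning, and its 7 counts at full depth came from 4 cells. In WT gated cells, Spp1 had a median of 32793 CPM in the 5 Cd44 cells and 1875 CPM in the 85 without, and of 5643 CPM in the 14 Fam20c cells and 1940 CPM in the 76 without. These 5 Cd44 cells ran from 2335 to 59524 CPM of Spp1.

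In KO gated cells Spp1 differed less between cells with and without Cd44 or Fam20c. Its median was 30496 CPM in the 30 Cd44 cells and 26679 CPM in the 46 without, and 30236 CPM in the 40 Fam20c cells and 26837 CPM in the 36 without. Fam20c and Cd44 were both found in 18 cells, Fam20c alone in 22, Cd44 alone in 12 and neither in 24. Their shares alone would give 15.8 cells with both. Detected genes had a median of 4578 in the cells with both, 3845 with Fam20c alone, 3555 with Cd44 alone and 2833 with neither. With the plate split at its median of detected genes, Fam20c was found in 13 of the 38 lower and 27 of the 38 upper cells, Cd44 in 9 and 21, and Spp1 in 35 and 38. Cells with more detected genes thus had all 3 more often, and the part of that in the co-detection was not tested.

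**Figure D3:**
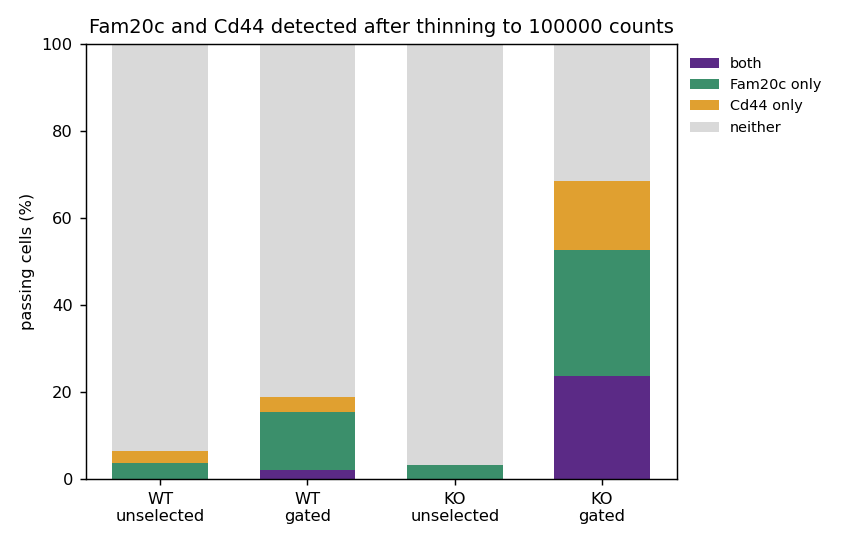
Share of passing cells with Fam20c, Cd44, both or neither after each cell was thinned to 100000 gene counts (vertical axis, percent; bars by group). In KO gated cells 18 of 76 held both, 22 Fam20c alone, 12 Cd44 alone and 24 neither, and WT gated cells had 2 of 90 with both.

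Across cells, Spearman correlations between the members were weak. For Spp1 and Fam20c, rho was 0.35 in WT unselected (78 cells), 0.06 in WT gated (90 cells), 0.27 in KO unselected (90 cells) and 0.14 in KO gated cells (76 cells). Given detected genes as ranks, it was 0.29, -0.02, 0.22 and 0.05. For Spp1 and Cd44, rho was 0.25 in WT unselected, 0.29 in WT gated and 0.14 in KO gated cells, and 0.24, 0.28 and 0.07 given detected genes. For Fam20c and Cd44 it was -0.03 in WT unselected, 0.19 in WT gated and -0.001 in KO gated cells, and -0.05, 0.16 and -0.17 given detected genes. Cells of a plate share library preparation and differ in depth, and in sparse counts a weak correlation is no finding.

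**Figure D4:**
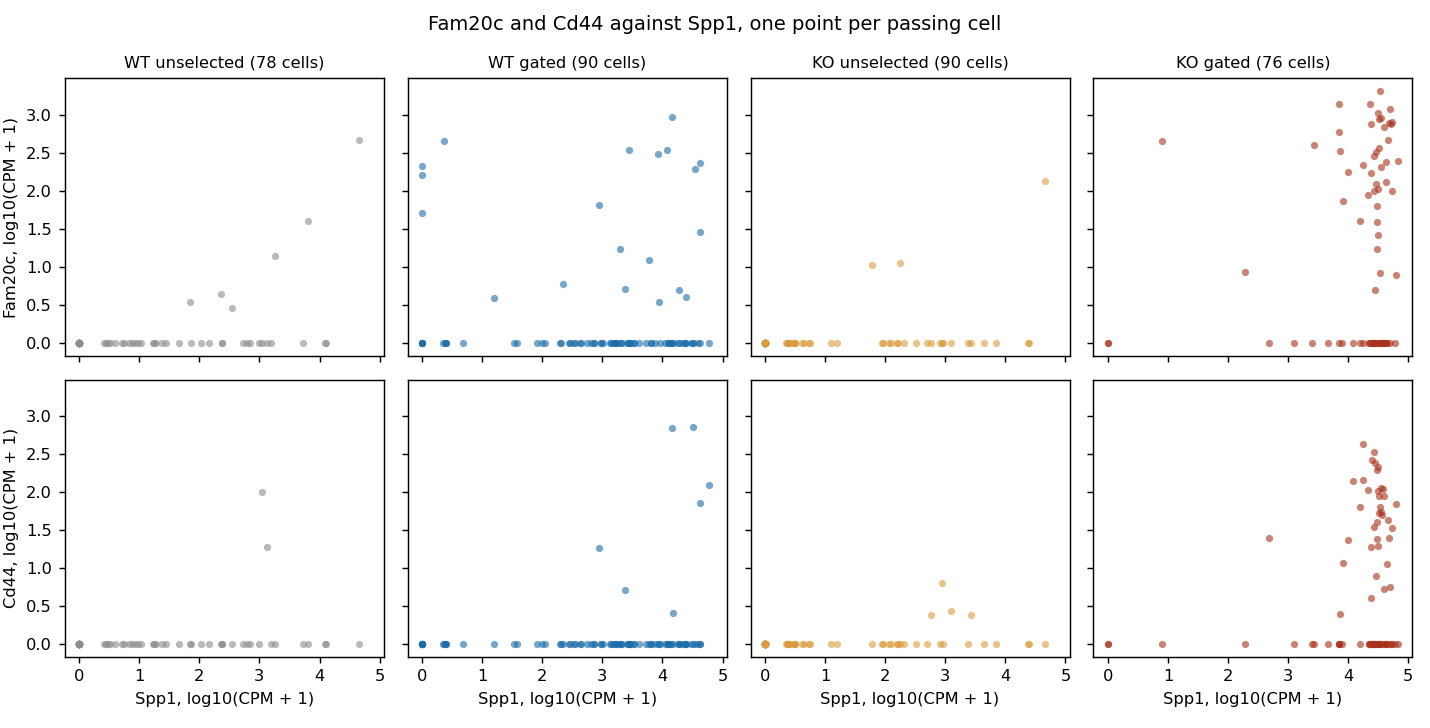
Fam20c (upper row) and Cd44 (lower row) against Spp1, both as log10(CPM + 1), with 1 point per passing cell and 1 panel per group. Fam20c and Cd44 points lie mostly to the right in the WT unselected panels, where the 3 Fam20c cells after thinning rank 1, 4 and 6 by Spp1, while KO gated cells with and without them sit at similar Spp1.

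Beyond the members, Spp1 had a rho with Gpnmb of 0.63 in WT unselected, 0.63 in WT gated, 0.54 in KO unselected and 0.38 in KO gated cells. With Clec7a the values were 0.57, 0.22, 0.35 and 0.19. Tmem119 gave -0.22, -0.34, -0.23 and 0.02, and the number of detected genes 0.44, 0.29, 0.45 and 0.23. Over the 4 plates and 334 cells, 3358 genes were compared with Spp1 and ranked by mean rho. Here and for the other members, a gene was compared if detected in at least 20% of the cells of every plate used. Gpnmb and Clec7a, detected in 13 and 10 of 90 KO unselected cells, fell below that and were not ranked. Of the 5 genes with the highest mean rho among those compared, Igf1, a growth factor, had 0.45 and Mif, a cytokine, 0.43. The others were Csf1, the ligand of Csf1r, with 0.41, Cd9, a tetraspanin, with 0.40, and Ctsz, a lysosomal protease, with 0.38. All genes compared had a median of 0.07 and a 95th percentile of 0.20. Mif is also a ligand in the Cd44 list.

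Fam20c was compared with 4706 genes over 166 gated cells of both genotypes. Hmgcs1, an enzyme of sterol synthesis, had the highest mean rho of 0.43, followed by Uchl3 (0.40), the fatty acid carrier Fabp5 (0.40), Rap2b (0.39) and Pafah1b3 (0.38), against a median of 0.07 and a 95th percentile of 0.23. Cd44 could be compared in 76 KO gated cells alone, over 6346 genes. There Impa1 (0.51), Atp2a3 (0.47), Abca2 (0.45), Vps8 (0.45) and Zmat2 (0.44) were highest, against a median of 0.08 and a 95th percentile of 0.26. Given detected genes, 4, 3 and 4 of the 5 genes of Spp1, Fam20c and Cd44 were again among the 5.

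The rest of the pathway was followed through 6 lists with 53 symbols, of which 31 reached 5 CPM in some group. Of these, 28 are not members. In WT cells the gate had 5 of 28 higher (14.3% of all measured genes) and 8 lower (20.4%), and in KO cells 4 higher (11.7%) and 8 lower (22.4%). Knockout over wild type gave 4 higher (16.3%) and 5 lower (13.3%) in unselected and 5 higher (10.6%) and 3 lower (11.9%) in gated cells. With spike-in scaling, the gate in KO cells gave 16 of 31 genes higher and 0 lower, members included, in place of 7 and 8, and 49.4% of all measured genes were then called higher and 3.73% lower. The median log2 difference of the 31 genes was -0.03 against -0.12 over all genes for gated over unselected WT cells, and -0.27 against -0.26 in KO cells. It was 0.07 against 0.05 for genotype in unselected cells and 0.19 against 0.00 in gated cells. The other SIBLING genes, Ibsp, Dmp1, Dspp and Mepe, which neighbour Spp1 on chromosome 5, had 0 counts except for Dmp1, with 4 counts in KO unselected cells.

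Among the secretory kinases, Fam20a was at 0 in every group. Fam20b, which phosphorylates xylose in proteoglycans, was at 47.2 CPM in WT unselected, 9.99 in WT gated, 40.9 in KO unselected and 39.99 in KO gated cells. It was lower by the gate in WT cells alone, and higher by genotype in gated cells, by a log2 difference of 1.90. Pkdcc, a kinase of secreted proteins, was at 4.47, 4.00, 13.5 and 15.5 CPM and higher by genotype in both gates. In WT gated cells, 1 cell held 93.95% of its counts. With spike-in scaling its genotype difference in unselected cells was 0.93, under 2-fold. Fam198b, another gene of that list, was at 15.8, 2.07, 0 and 4.87 CPM, lower by the gate in WT cells and by genotype in unselected cells. Fam20c was the 1 kinase of the list called higher by the gate on the gene-count scale, while with spike-in scaling the Fam20b gate difference in KO cells turned from -0.03 to 1.27.

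Of the osteopontin receptors, Cd44 alone was called higher by the gate in WT cells, and Cd44 with Itga4 in KO cells. Itga4, the alpha 4 integrin, was at 6.83 CPM in WT unselected, 6.79 in WT gated, 0 in KO unselected and 17.9 in KO gated cells. Its summed counts of 266 in WT unselected cells came from 1 cell. Itga9, the alpha 9 integrin, was at 30.9, 7.94, 61.3 and 14.5 CPM and called lower by the gate in both genotypes, while Itgb3 was called lower in WT cells, at 30.3 against 11.9 CPM. Scaled to spike-ins, the gate difference of Itga9 in KO cells was -0.72 and that of Itgb3 in WT cells -0.83, both under 2-fold. Itgb5 was at 766, 750, 746 and 612 CPM, and Itgb1 at 341, 237, 386 and 238 CPM, and both were under 2-fold in all 4 comparisons on the gene-count scale. With spike-in scaling the gate difference in KO cells turned from -0.70 to 0.64 for Itgb1 and from -0.28 to 1.05 for Itgb5.

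The enzymes differed by gene. Acp5, the tartrate-resistant phosphatase that can dephosphorylate osteopontin, had 0 counts in both unselected groups and 18.8 and 16.7 CPM in the gated groups, in 7 wild-type and 13 knockout cells. Set against a floor of 3 counts over the unselected group, the gated level was 245 times higher in WT and 317 times higher in KO cells. The lower 95% limits of the ratios, for counting error only, were 198.7 and 257.6. Mmp2, a secreted gelatinase, was at 54.8 CPM in WT unselected, 3.93 in WT gated, 21.0 in KO unselected and 6.14 in KO gated cells, lower by the gate in both genotypes. Its gate difference in KO cells was -0.40 with spike-in scaling, under 2-fold. Mmp14, a membrane-anchored metalloprotease that can cleave Cd44, was at 3.34, 12.2, 7.77 and 0 CPM, called higher by the gate in WT and lower in KO cells. Its counts came from 1, 6, 2 and 0 cells after thinning. Psen2, a catalytic subunit of gamma-secretase, which cuts the membrane stub of Cd44, was at 4.77, 33.9, 13.4 and 18.5 CPM. It was higher by the gate in WT cells and by genotype in unselected cells. Both calls use the WT unselected level, where 1 cell held 83.9% of the counts. The unselected genotype difference of Psen2 was 0.84 with spike-in scaling, under 2-fold. Tgm2, a transglutaminase that crosslinks osteopontin, was at 5.39 CPM in WT unselected cells and at 0 in the other groups.

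The other ligands and hyaluronan genes also moved in both directions. Mif, which signals through Cd74 and Cd44, was at 48.5, 137.9, 71.2 and 288 CPM. It was higher by the gate in both genotypes and, by a log2 difference of 1.06, by genotype in gated cells. Cd74, the Mif receptor, was at 121 CPM in WT unselected, 48.2 in WT gated, 14.5 in KO unselected and 4.77 in KO gated cells. It was called lower in all 4 comparisons on the gene-count scale. Scaled to spike-ins, its gate differences were -0.85 in WT and -0.24 in KO cells, both under 2-fold. The hyaluronan synthases Has1, Has2 and Has3 were at 0 in every group. Hmmr, a hyaluronan-binding protein of the spindle, was at 33.8, 8.98, 51.3 and 15.5 CPM and called lower by the gate in both genotypes. Its gate difference in KO cells was -0.38 with spike-in scaling, under 2-fold. Hyal1, a lysosomal hyaluronidase, was at 0, 1.02, 0 and 13.5 CPM, and 60.7% of its KO gated counts came from 1 cell.

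**Figure D5:**
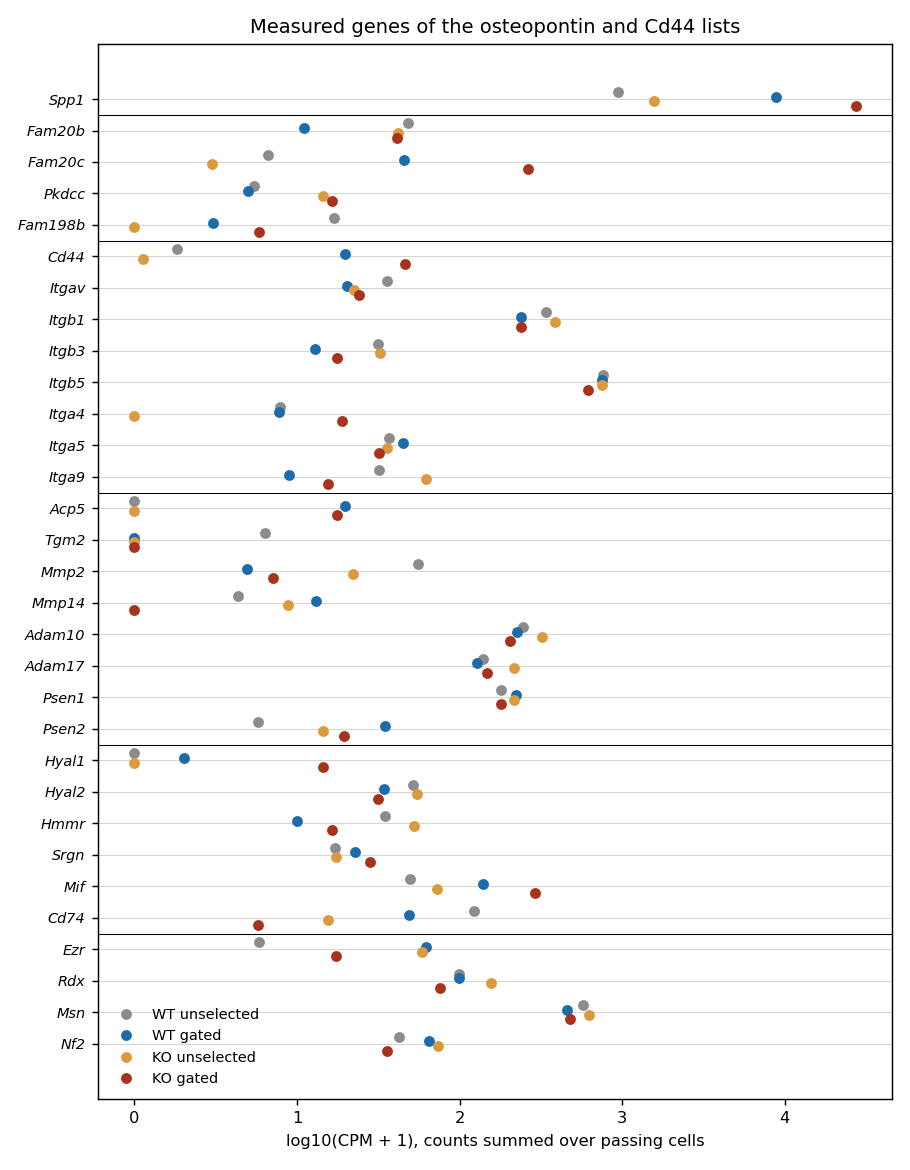
Level of the 31 measured genes of the 6 lists in each group, as log10(CPM + 1) of counts summed over passing cells. Each point is 1 group, and lines divide the lists. Each of Spp1, Fam20c and Cd44 has its highest point in KO gated cells, and Itgb5, at 766, 750, 746 and 612 CPM, differs by under 2-fold between groups.

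Ezrin, the linker of Cd44 to actin encoded by Ezr, was at 4.82 CPM in WT unselected, 61.4 in WT gated, 57.9 in KO unselected and 16.3 in KO gated cells. Its direction by the gate was higher in wild-type and lower in KO cells. The KO difference was -0.47 with spike-in scaling, under 2-fold. A single cell held 87.8% of its counts in WT unselected, 55.8% in WT gated, 52.7% in KO unselected and 21.6% in KO gated cells. Among the other linkers, Rdx and Nf2 were called lower by the gate in KO cells, at log2 differences of -1.05 and -1.04, which turned to 0.28 and 0.27 with spike-in scaling, and Msn was not called in any comparison.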

How the data were processed

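The authors deposited 1 table of raw read counts per gene for 369 cells, with 23337 genes and 92 ERCC spike-in RNAs. Per the submitters' processing notes, the reads went through STAR 2.5.3a, HTSeq, Trim Galore 0.4.3 and Picard, in no stated order, on the mm10 build. The gene annotation counted and whether strand was used are not given in the sources. Groups, gates and quality calls come from the labels. The members and lists were chosen with earlier results of these data known. Counts of passing cells were summed per group and divided by summed gene counts without spike-ins (CPM). Spike-ins were 3.56% of counts in passing cells. Differences are log2(CPM + 1), which understates genes at low levels. Detection and correlation used cells thinned to 100000 gene counts (seed 7), a depth that 0 passing cells lay below. Measured genes had 5 CPM in a group. Named genes were the members, Gpnmb, Clec7a, Trem2 and Tmem119, list genes called by the size rule, up to 4 others per list by level, and the 5 genes most alike. With 1 sample a group, there is no model and no p-value. Doublets were not searched for. Of 107 list symbols, 105 were in the table, 1 by an older name. Gene lengths came from GENCODE M21 for 20892 genes (89.5%), which held 79.6% of counts, and promoter windows from RefSeq (GRCm38.p6). Calculations used Python 3.11.15, numpy 2.4.6 and scipy 1.17.1; edgeR 4.0.16 and DESeq2 1.42.0 gave scaling factors alone. The recovery of log2 differences and of correlations, and the depth after thinning, were tested on simulated cells. Intervals and counts of cells were not tested that way. Alternatives were scaling, weighting, filters, and leaving out cells.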

Additional observations from a re-analysis of the deposited data

Results flagged for a closer look

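Wells that did not pass the quality criteria were not used above. In knockout gated wells that did not pass, Spp1 was at 42272 CPM, with counts in 9 of 17 wells, against 65.1 CPM in the 12 such wells of the WT unselected group, 328.2 in the 3 of WT gated and 743.5 in the 3 of KO unselected cells. Fam20c was at 393.8 CPM there, in 5 of 17 wells, against 0.521 CPM in wild-type unselected wells, which is 1 count, and 0 in the other 2 groups. Nearly all of this came from 8 of the 17 wells, which held 22967 of 22970 Spp1 counts and between 1011 and 142318 gene counts each.

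The genotype difference of Fam20c was -1.126 on the log2 scale in unselected and 2.532 in gated cells, and that of Cd44 was -0.697 in unselected and 1.234 in gated cells. For each gene the sign differed between the gates, and the difference between the gates was not tested. The unselected values rest on few cells, since 1 cell held 85.8% of the wild-type unselected Fam20c counts and Cd44 had 32 and 7 counts in the unselected groups.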

How the results depend on the processing

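All 12 member differences are descriptions of single plates, and none of the 10 that were called changed sign under the alternatives run. The gated Cd44 difference between genotypes went under 2-fold without border-marker cells and matched on detected genes, and the unselected Fam20c difference did so without top cells. The low counts of Cd44 in unselected cells (32 and 7) limit its differences. Spike-in scaling moved the median log2 over all genes in the gate comparison from -0.12 to 0.29 (WT cells) and from -0.26 to 0.98 (KO cells), and for genotype from 0.05 to -0.38 in unselected and from 0.00 to 0.35 in gated cells. The cause of the changes below was not tested. No paired analysis was possible because each group is 1 sample.

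For Spp1, the gate in WT cells (3.23) gave 2.83 by mean CPM per cell, 3.70 with spike-ins, 3.41 with TMM, 3.38 with median-of-ratios, 3.27 without border-marker cells, 3.27 with all cells, 4.15 without top cells and 2.56 matched on detected genes. In the same order, the gate in KO cells (4.14) gave 4.41, 5.48, 4.41, 4.39, 4.37, 4.17, 4.83 and 2.72. Genotype in unselected cells (0.74) gave 0.12, 0.25, 0.68, 0.67, 0.47, 0.79, 1.03 and -0.23, and in gated cells (1.65) it gave 1.71, 2.03, 1.69, 1.68, 1.58, 1.68, 1.71 and 1.32.

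For Fam20c, the gate in WT cells (2.78) gave 2.32 by mean CPM per cell, 3.20 with spike-ins, 3.05 without border-marker cells, 4.18 without top cells and 1.90 matched. In knockout cells (6.44) it gave 7.47 with spike-ins, 7.67 without top cells, 5.05 matched and 6.95 with 0.1 CPM added. Genotype in unselected cells (-1.13) gave -1.51 by mean CPM per cell, -0.64 without top cells and -2.06 matched. In gated cells (2.53) it gave 2.64 by mean CPM per cell, 2.91 with spike-ins, 2.44 without border-marker cells, 2.85 without top cells and 1.91 matched.

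For Cd44, the gate in WT cells (3.43) gave 2.84 matched and 4.35 with 0.1 CPM added, and in KO cells (5.36) 7.67 with 0.1 CPM added. Genotype in unselected cells (-0.70) gave -2.05 with 0.1 CPM added. In gated cells (1.23) it gave 1.61 with spike-ins, 0.46 without border-marker cells, 2.00 without top cells and 0.89 matched.

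In knockout gated cells, rho of Spp1 with Fam20c (0.136) was -0.026 without border-marker cells, and with Cd44 (0.143) -0.114 in cells with both genes. Of 31 pathway genes, members included, the gate in WT cells had 8 lower and 5 with spike-ins. In knockout cells 7 higher became 16 with spike-ins and 4 at 20 CPM or more, and 8 lower became 0 with spike-ins. Genotype in unselected cells had 4 higher, which became 2 with spike-ins, 7 with no filter and 2 at 20 CPM or more, and 6 lower, which became 3 at 20 CPM or more. In gated cells 8 higher became 5 at 20 CPM or more.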
